A study of Mus musculus with 14 samples.

Results

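The transcripts of 8 genes that move nitrogen and carbon between glutamate, pyruvate, aspartate and glutamine were followed in epididymal white adipose tissue (eWAT) of mice fed a normal diet or a Western diet (WD). The genes are Gpt2, Gpt, Got1, Got2, Glud1, Glul, Asns and Pcx, 8 of the 23282 genes in the count table, and they were found by their symbols. Gpt2 was chosen by its fall on the WD in these libraries and the other 7 genes by pathway, so the diet values of Gpt2 are given as a description without a test. The animals were wild type male C57BL/6J mice, 4 weeks old at purchase, and each library came from the total RNA of eWAT after 20 weeks on the normal diet (control group) or on the WD (WD group). The labels give 2 batches, with 4 control and 5 WD libraries in batch 1 (control replicates 1 to 4, WD replicates 1 to 5) and 5 control libraries in batch 2 (control replicates 5 to 9). The labels do not say what the batches are. All WD mice were in batch 1, so in any comparison of the WD group with the batch 2 controls diet and batch cannot be told apart.

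Alanine aminotransferases pass the amino group of glutamate to pyruvate, which gives alanine and 2-oxoglutarate, and the reaction runs in both directions. Aspartate aminotransferases, glutamate dehydrogenase and glutamine synthetase act on the same glutamate pool, while pyruvate carboxylase turns pyruvate into oxaloacetate. In white fat these reactions are known for the release of glutamine and alanine and for the supply of carbon to the glycerol of stored triglyceride.

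QuantSeq 3′-mRNA sequencing reads each transcript near its poly(A) end, so a gene's counts do not grow with its length. Other differences between genes in how fully their reads are counted were not measured, so comparisons of level between genes are approximate. Levels are given as CPM, the counts of a gene per 1000000 counts of its library, after TMM normalization over the 14 libraries. Positions follow mm10, the build in the submitters' processing notes, and all 8 genes are annotated as protein coding. Gpt2 lies on chromosome 8 (85492617 to 85527558, plus strand) and encodes the mitochondrial alanine aminotransferase. Gpt lies on chromosome 15 (76696764 to 76699675, plus strand) and encodes its cytosolic counterpart. Got1 on chromosome 19 (43499753 to 43524605, minus strand) and Got2 on chromosome 8 (95864137 to 95888365, minus strand) encode the cytosolic and the mitochondrial aspartate aminotransferase. Glud1 on chromosome 14 (34310727 to 34345033, plus strand) encodes glutamate dehydrogenase. Glul on chromosome 1 (153899929 to 153909723, plus strand) encodes glutamine synthetase. Asns on chromosome 6 (7675171 to 7693182, minus strand) encodes asparagine synthetase, which uses glutamine and aspartate. Pcx on chromosome 19 (4510472 to 4621752, plus strand) encodes pyruvate carboxylase. Glul, Got2 and Pcx each overlap an annotated gene on the opposite strand, and Got2 and Glud1 have pseudogenes in the annotation. Glul also overlaps a microRNA gene, Mir8114, on its own strand. The use of strand in counting is not given in the sources used here and multiple alignments were counted, so the counts of these 4 genes may include reads of the overlapping genes or pseudogenes.

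Asns is a textbook target of ATF4, the transcription factor of the amino acid response, and the start of its gene is shown because Asns was one of the genes that fell. The motif TGATGNAA, at which C/EBP and ATF factors bind together, was searched on both strands from 250 bases before to 50 bases after the transcription start in RefSeq promoter windows (GRCm38). Windows were listed for 7 of the 8 genes, and 2 of the 7 held the motif. Over all genes with a window, 4.51% of 27025 held it, and 3.97% of the 32851 windows did. Capitals mark the match in the 30 bases around it, at chr6:7693214-7693243 for Asns and chr19:43524689-43524718 for Got1, each 5′ to 3′ on the minus strand on which the gene lies.
Asns: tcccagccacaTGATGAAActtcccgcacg
Got1: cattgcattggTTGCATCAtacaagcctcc
The match lay 23 to 16 bases before the start of Asns on which its RefSeq window was built. That start differs from the one in the count table (7693182). The GENCODE annotation starts Asns at 7693254, which would place the match inside the gene. In Got1 the match was found on the reverse strand, 102 to 95 bases before the start. The window of Gpt2 held no match to these letters.

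Total counts ranged from 10278970 to 13712254 per library. The batch 1 controls were the least alike of the 3 groups. In control replicate 1, 15 genes of the epididymis, the organ to which this fat is attached, took 13.4% of all counts, against at most 0.00570% in any other library, and control replicate 4 had counts for the fewest genes (7999, against up to 13780 in other libraries). The summed level of 15 adipocyte markers was 7239 CPM in control replicate 1, 40964 to 58405 CPM in the other batch 1 controls, 30438 to 43329 CPM in WD libraries and 73648 to 85350 CPM in batch 2 controls. The summed level of 15 macrophage markers ran from 594 to 3034 CPM in batch 1 controls, from 2827 to 4555 CPM in WD libraries and from 556 to 1183 CPM in batch 2 controls. Against the batch 2 controls, 13 of the macrophage markers were higher in the WD group with an FDR under 0.05, and 10 of the adipocyte markers were lower and 1, the hormone gene Lep, was higher, where 6.4% of all genes passed in either direction. In whole tissue, fewer cells of a type and less RNA per cell cannot be told apart.

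Gpt2 was lower in every WD library than in any control library. Its level was 27.4, 52.0, 111 and 63.4 CPM in control replicates 1 to 4. In WD replicates 1 to 5 it was 17.9, 25.4, 16.0, 12.5 and 23.2 CPM. In the batch 2 controls it was 136, 160, 113, 101 and 101 CPM. The highest WD library lay just under the lowest control, control replicate 1, which was also the library with the epididymal transcripts and the lowest adipocyte markers. The batch 1 controls had a mean of 63.4 ± 34.9 CPM (SD, n = 4). The mean of the WD group was 19 ± 5.27 CPM (SD, n = 5), and that of the batch 2 controls 122 ± 25.6 CPM (SD, n = 5). The control mean was 3.33 times the WD mean within batch 1 and 6.42 times it for batch 2. On the log2 scale of the edgeR fit the difference between WD and control was -1.74 (standard error 0.46) within batch 1, -2.70 (0.25) against the batch 2 controls and -2.35 (0.38) over all 14 libraries. Without control replicates 1 and 4, the libraries that stand apart, the value within batch 1 was -2.10. Because the fall chose the gene, these values describe it and give no test of the diet.

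**Figure D1:**
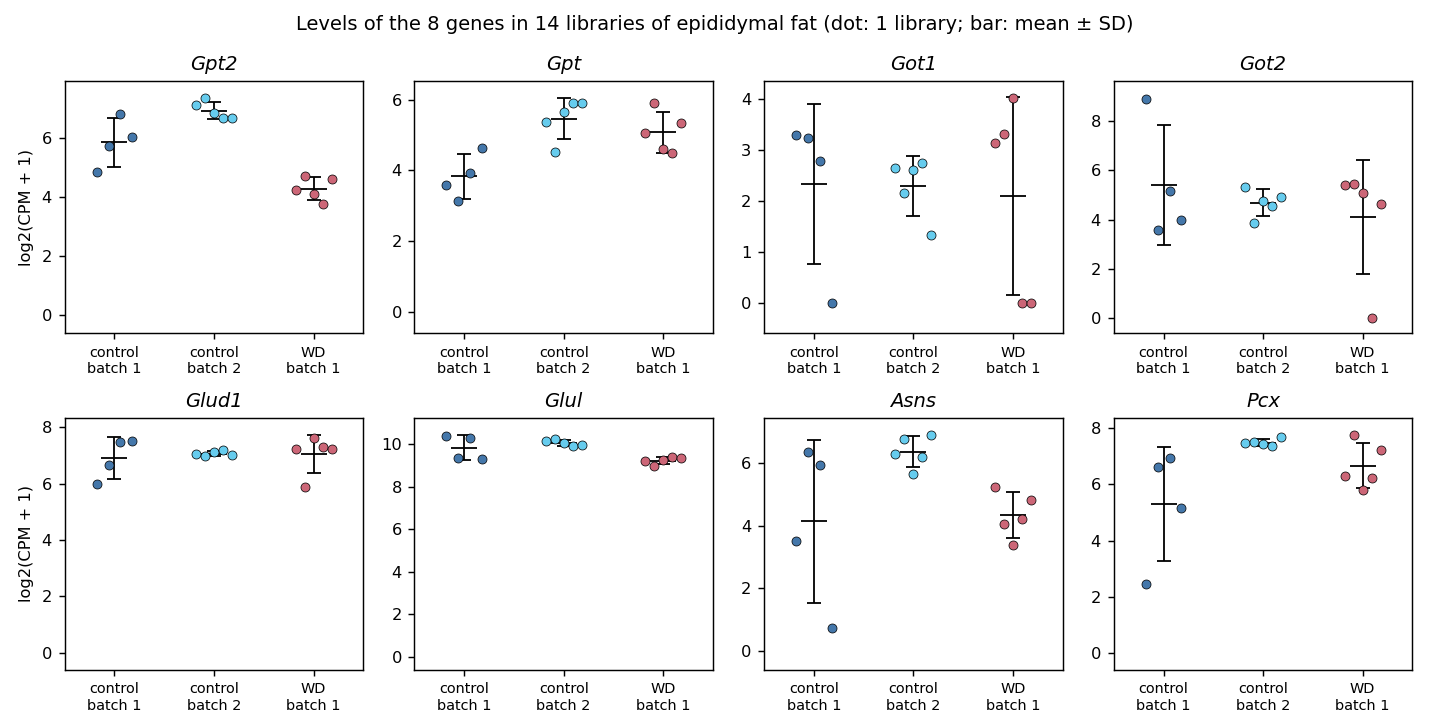
Levels of the 8 genes as log2(CPM + 1) on the vertical axis in the batch 1 controls (4 libraries), the batch 2 controls (5) and the WD group (5), with 1 dot per library and bars for the mean ± SD. Gpt2 in the WD group (12.5 to 25.4 CPM) lies under all 9 controls (27.4 to 160 CPM), and Asns and Glul in the WD group lie under the batch 2 controls but overlap the batch 1 controls.

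The choice of Gpt2 did not use the controls of one batch against those of the other. The batch 2 controls had higher Gpt2 than the batch 1 controls by 0.94 on the log2 scale (standard error 0.36), which did not pass an FDR of 0.05 (FDR = 0.584, unadjusted p = 0.0245, edgeR's quasi-likelihood test). In that comparison 3 of the 5 batch 2 libraries lay above all batch 1 controls. The adipocyte markers were also higher in batch 2, with a median log2 fold change of 1.16 over the 15 markers. Of these markers 0 passed an FDR of 0.05 by edgeR, where 0% of the 12106 genes tested passed, and 5 had an unadjusted p under 0.05. The part of the marker levels in the Gpt2 difference was not tested.

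Gpt, the cytosolic form, did not follow Gpt2. Its level was 11, 7.84, 14.3 and 24 CPM in control replicates 1 to 4. In WD replicates 1 to 5 it was 32.2, 58.9, 23.1, 21.4 and 39.2 CPM. In the batch 2 controls it was 40.0, 21.9, 48.8, 59.1 and 59.0 CPM. The WD libraries thus lay among or above the batch 1 controls and among the batch 2 controls or just under them. The fitted difference between WD and control was 1.28 on the log2 scale within batch 1 (standard error 0.57, FDR = 0.932, unadjusted p = 0.0411, edgeR) and -0.40 against the batch 2 controls (standard error 0.33, FDR = 0.625), so neither passed and the signs were opposite. The batch 2 controls exceeded the batch 1 controls by 1.67 (standard error 0.48, FDR = 0.445, unadjusted p = 0.00444), more than either diet difference of Gpt.

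The 2 alanine aminotransferases changed places with diet. Gpt2 stood above Gpt in 9 of 9 control libraries and in 0 of 5 WD libraries. The ratio of Gpt2 to Gpt was 2.49 to 7.72 in the batch 1 controls and 1.70 to 7.30 in the batch 2 controls. In the WD group it was 0.432 to 0.692, wholly under both control groups. Gpt2 made up 63.0 to 88.5% of the summed level of both genes in the controls and 30.2 to 40.9% in the WD group. A ratio within a library does not move with the scaling of that library. This ratio was chosen after the values were seen and holds the fall of Gpt2 that chose the gene, so it is a description.

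**Figure D2:**
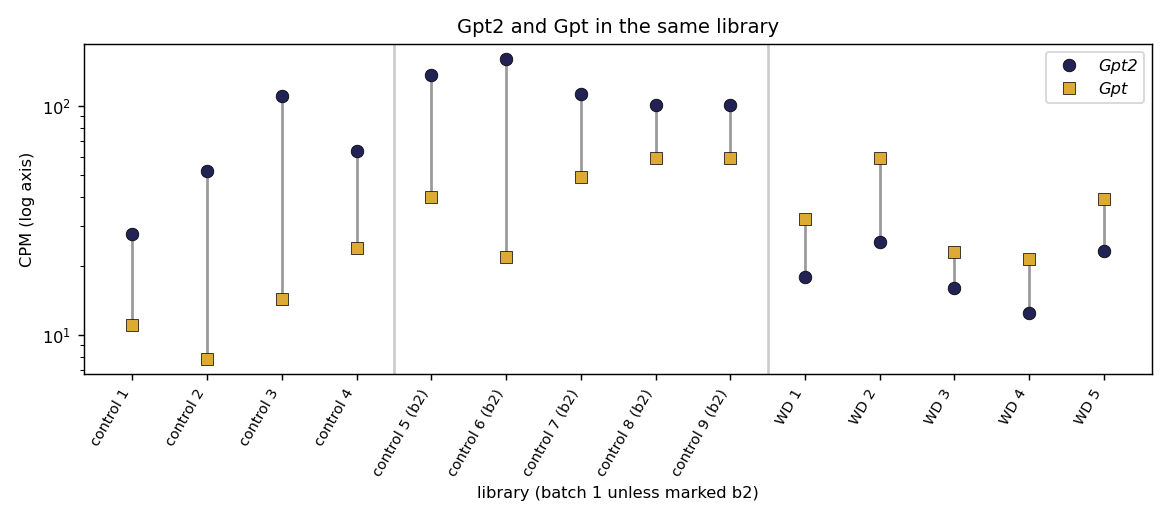
Gpt2 (circles) and Gpt (squares) in each of the 14 libraries, in CPM on a log axis, with a line joining the pair of each library and grey lines between the groups. The circle is on top in all 9 controls and the square in all 5 WD libraries.

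Asns fell in the WD group against the batch 2 controls. Its level in those controls was 77.0, 109, 50.1, 72.6 and 119 CPM. In WD replicates 1 to 5 it was 37.1, 15.7, 9.40, 17.7 and 27.7 CPM, every library under all batch 2 controls. The fitted difference was -2.0 on the log2 scale (standard error 0.35, FDR = 0.00197, edgeR), and the control mean was 3.98 times the WD mean. Within batch 1 the groups overlapped, since the controls themselves ran from 0.653 CPM (9 counts, control replicate 4) and 10.4 CPM (control replicate 1) to 61.3 and 82.2 CPM (control replicates 3 and 2). There the difference was -0.85 (standard error 0.92, FDR = 1.00, unadjusted p = 0.374). The low pair were the control with the epididymal transcripts and the control with counts for the fewest genes. Without both, only control replicates 2 and 3, the batch 1 controls with the highest Asns, were left. The difference within batch 1 was then -1.74 (FDR = 0.149, edgeR). With all batch 1 libraries, limma-voom gave 0.75 and an edgeR fit with the replicate number as a block 0.10, and neither passed.

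Glul was the most abundant of the 8 genes, with 54.4 to 70.9% of their summed level in every library. Its level was 1147, 1202, 1065, 974 and 998 CPM in the batch 2 controls. In WD replicates 1 to 5 it was 591, 506, 607, 683 and 646 CPM, all under the batch 2 controls, and it fell by 0.84 on the log2 scale (standard error 0.16, FDR = 0.00380, edgeR). The batch 1 controls fell into 2 levels, 1343 and 1247 CPM in control replicates 1 and 3 and 662 and 630 CPM in control replicates 2 and 4, and the lower pair lay within the range of the WD group. Within batch 1 the difference was -0.68 (standard error 0.33, FDR = 0.998, unadjusted p = 0.0564).

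Pcx was steady in the batch 2 controls, at 176, 182, 171, 164 and 203 CPM. In WD replicates 1 to 5 it was 77.7, 215, 54.3, 74.8 and 150 CPM, and in control replicates 1 to 4 it was 4.54, 96.7, 122 and 35.0 CPM. It was the one gene of the 8 whose batch 2 controls all lay above the batch 1 controls, where 4.13% of all genes tested did so. That difference was 1.47 on the log2 scale (standard error 0.64, FDR = 0.641, unadjusted p = 0.0421). The WD group differed from the batch 2 controls by -0.66 (standard error 0.31, FDR = 0.268) and from the batch 1 controls by 0.82 (standard error 0.70, unadjusted p = 0.263). Without WD replicate 2, the WD library with the highest Pcx, the difference from the batch 2 controls was -1.01 with an FDR of 0.0169 (edgeR). This was 1 of 16 settings, and Pcx passed in no other, with an FDR of 0.0716 (limma-voom) to 0.485. Over all genes, the fit without WD replicate 2 called 977, against 773 with all libraries.

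Glud1 differed little between groups. The batch 1 controls had a mean of 130 ± 58.6 CPM (SD, n = 4), WD libraries 141 ± 50.5 CPM (SD, n = 5) and batch 2 controls 133 ± 8.93 CPM (SD, n = 5). All 3 fitted differences between these groups were at most 0.11 on the log2 scale, with standard errors of 0.25 to 0.40. Control replicate 1 (61.6 CPM) and WD replicate 2 (57.9 CPM) were the lowest of the 14 libraries, and WD replicate 3 (196 CPM) the highest.

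The aspartate aminotransferases were low and uneven. Got1 ran from 1.5 to 15.3 CPM in the libraries that had counts and had no count in control replicate 4, WD replicate 4 and WD replicate 5, where 3 counts would have been 0.212 to 0.324 CPM over the 14 libraries. Got2 was 480 CPM (4442 counts) in control replicate 1 and 10.8 to 42.9 CPM in the other libraries with counts, with none in WD replicate 4. Control replicate 1 is the library with the epididymal transcripts, and their part in its Got2 level was not tested. The fitted WD difference of Got2 within batch 1 was -2.28 (standard error 1.25, unadjusted p = 0.0907) with control replicate 1 and 0.48 without it. Neither gene passed the test in any comparison.

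**Figure D3:**
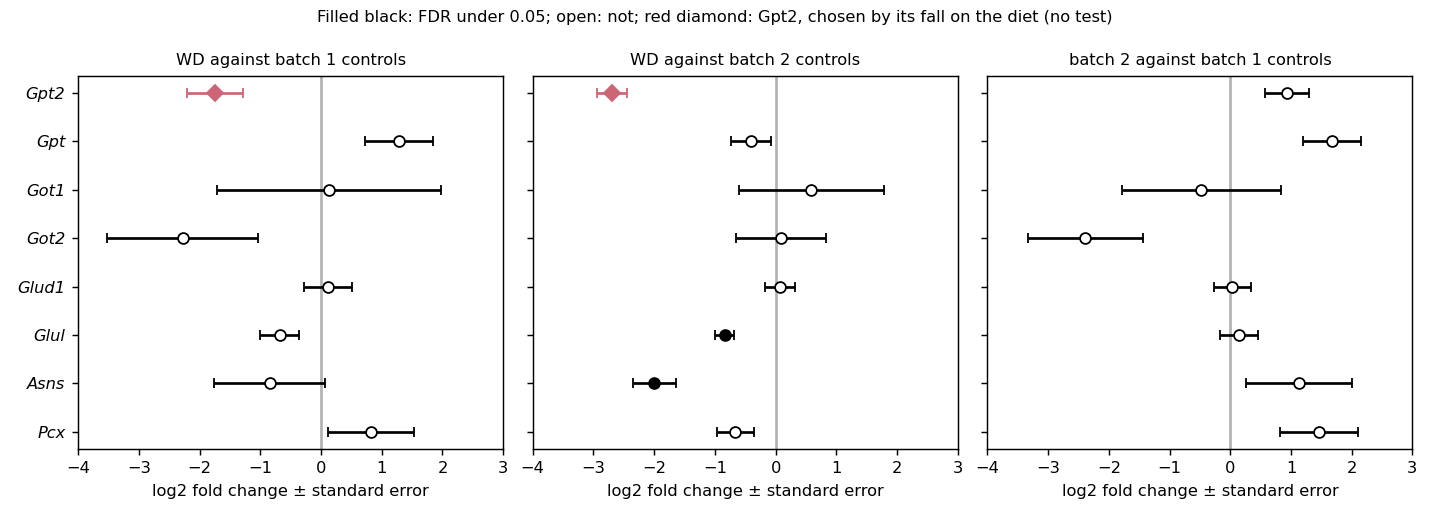
Fitted log2 fold changes of the 8 genes with their standard errors for the WD group against the batch 1 controls, the WD group against the batch 2 controls, and the batch 2 controls against the batch 1 controls. Black filled circles mark an FDR under 0.05 (Asns at -2.0 and Glul at -0.84, both against the batch 2 controls), open circles genes that did not pass, and the red diamond Gpt2 where its fall chose it and no test is given.

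All 8 genes passed the filter on low counts in each comparison. Of the 7 genes chosen by pathway, 0 passed an FDR of 0.05 within batch 1, where 0% of the 12157 genes tested passed by edgeR, 628 had an unadjusted p under 0.05, and DESeq2 called 114 and limma-voom 0. In that comparison the 7 genes all overlapped the controls, where 0.847% of all genes tested lay wholly under them. Gpt2 is left out of this count because its fall chose it. In the batch 2 controls against the batch 1 controls, 0 of the 7 passed (3 with an unadjusted p under 0.05), as did 0% of all genes by edgeR, while 466 were higher and 429 lower at an unadjusted p under 0.05, with 111 called by DESeq2 and 0 by limma-voom. In the WD group against the batch 2 controls, 2 of the 7 fell and 0 rose, where 6.4% of 12070 genes passed in either direction. There Asns and Glul, 2 of the 7, lay wholly under the controls, where 3.8% of all genes did so. Over all 14 libraries 0 of the 7 passed (2 with an unadjusted p under 0.05), where 0.53% of 12653 genes did, and DESeq2 called 1 of the 7 and limma-voom 0. The 7 genes all overlapped the controls over the 14 libraries, where 0.213% of all genes lay wholly under all 9. The median log2 fold change of the 7 genes chosen by pathway was 0.11 within batch 1 (the value of Glud1). It was -0.40 against the batch 2 controls (Gpt) and 0.14 between the control batches (Glul). The median of all genes was 0.03, -0.00 and -0.00 in these comparisons. The summed level of the 8 genes ran from 947 to 1947 CPM in batch 1 controls, from 930 to 1058 CPM in WD libraries and from 1544 to 1816 CPM in batch 2 controls.

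The summed adipocyte markers differed between the WD group and the batch 2 controls, with means of 37863 and 79240 CPM. Within batch 1, 0 of the 15 markers passed an FDR of 0.05 by edgeR, where 0% of the 12157 genes tested passed. There 1 marker was higher and 1 lower at an unadjusted p under 0.05, and the median log2 fold change of the markers was -0.01. The marker sum was 7239 CPM in control replicate 1. It was 58405, 57847 and 40964 CPM in control replicates 2 to 4, against 30438 to 43329 CPM in the WD libraries. The levels were also divided by the adipocyte marker sum of the same library, a scaling chosen after the values were seen, and the results are a description. The division by 1 sum per library raises the ratio of WD to batch 2 controls of every gene in about the same measure. Per 1000 CPM of markers, Gpt2 ran from 0.344 to 0.835 in WD libraries, from 0.890 to 3.79 in batch 1 controls and from 1.29 to 1.87 in batch 2 controls. The batch 2 mean of Gpt2 was then 2.97 times the WD mean in place of 6.42 times, and the batch 1 mean 3.94 times in place of 3.33 times. The batch 1 value depends on control replicate 1, the library with the epididymal transcripts and the lowest marker sum. It held 3.79, against 0.890, 1.91 and 1.55 in control replicates 2 to 4. These values hold the fall that chose Gpt2 and add no support to it. Asns ran from 0.217 to 0.978 in WD libraries and from 0.623 to 1.52 in batch 2 controls, so that these groups then overlapped. Glul ran from 14 to 18.8 in WD libraries and from 12.7 to 14.6 in batch 2 controls, and its WD mean was 1.19 times the control mean where it had been 0.563 times, a turn that follows from the common factor. For the other genes the WD mean was 3.19 (Got1), 2.30 (Got2), 2.15 (Glud1), 1.66 (Gpt) and 1.42 (Pcx) times that of the batch 2 controls.

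**Figure D4:**
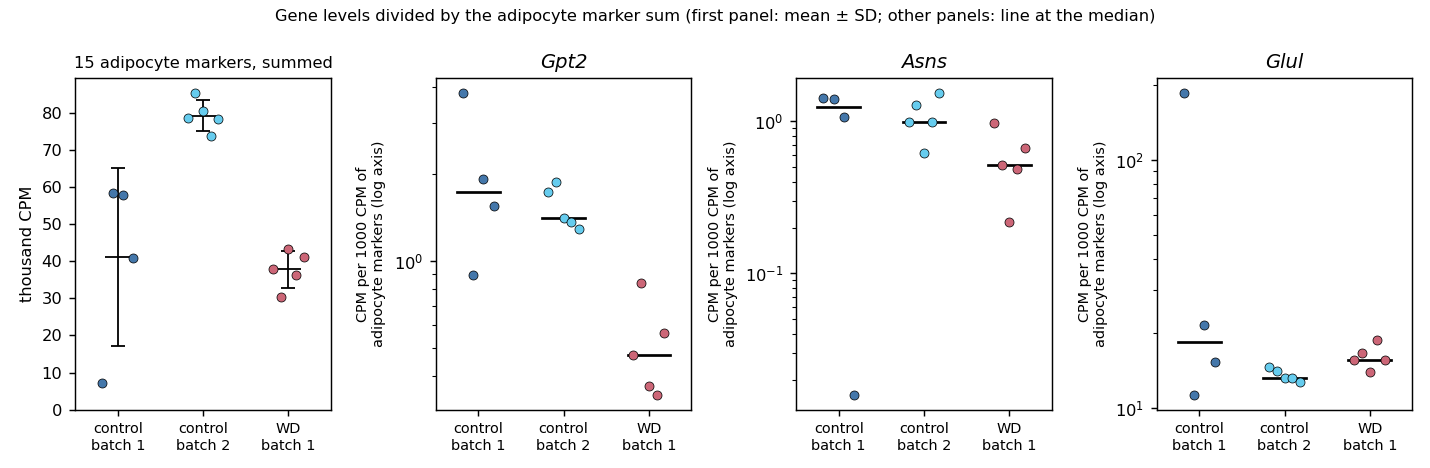
Summed CPM of 15 adipocyte markers (left panel, in units of 1000 CPM, bars for the mean ± SD) and the levels of Gpt2, Asns and Glul per 1000 CPM of those markers (log axes, line at the median), with 1 dot per library. The WD group lies under all controls for Gpt2 (0.344 to 0.835), which was chosen by its fall, overlaps the batch 2 controls for Asns and lies mostly above them for Glul.

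The neighbouring pathway genes, without the 8, were taken from 6 lists. Within batch 1, between the control batches and over all 14 libraries, 0 genes of these lists passed an FDR of 0.05 by edgeR. Of all genes tested 0%, 0% and 0.53% passed in these comparisons. Within batch 1, 1 gene of the ATF4 list was higher and 2 were lower at an unadjusted p under 0.05, and in each other list 0 were higher and at most 1 lower at that level.

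Against the batch 2 controls, the largest number of calls lay in pyruvate handling and the citrate cycle. Of 22 citrate cycle and citrate export genes tested, 4 fell and 0 rose, and 14 were lower at an unadjusted p under 0.05. Over all 12070 genes tested, 474 rose and 299 fell (6.4% in all), and 953 were lower at an unadjusted p under 0.05. Among them were Dlst, a subunit of 2-oxoglutarate dehydrogenase (-1.01 on the log2 scale, 59.6 CPM in the WD group and 119 CPM in the batch 2 controls), Sdha, of succinate dehydrogenase (-0.82, 204 and 357 CPM), and Idh3b, of isocitrate dehydrogenase (-0.91, 58.7 and 110 CPM). Their batch 1 controls had means of 65.7 CPM for Dlst, 230 CPM for Sdha and 55.1 CPM for Idh3b, and the within-batch differences were -0.14, -0.18 and 0.09. These means hide a wide spread. Dlst had 32.4, 115, 83.9 and 31.6 CPM in control replicates 1 to 4, against 35.8 to 74.5 CPM in WD libraries. Sdha had 241, 253, 266 and 160 CPM, against 181 to 234 CPM. Idh3b had 53.2, 58.1, 67.6 and 41.7 CPM, within the WD range of 40.8 to 76.9 CPM. The FDR against the batch 2 controls was 0.00732 for Dlst, 0.00432 for Sdha and 0.0117 for Idh3b. The citrate cycle list also had a median of 0.64 between the batch 2 and batch 1 controls, with 8 genes higher and 0 lower at an unadjusted p under 0.05.

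Of 23 pyruvate handling genes tested against the batch 2 controls, 2 rose and 3 fell, where 6.4% of all genes passed in either direction, with a median of -0.49 over the list and -0.00 over all genes. Pdk4, a kinase that switches off pyruvate dehydrogenase, rose by 1.82 (22.4 CPM in the WD group, 6.27 CPM in the batch 2 controls), and Pkm, a pyruvate kinase, rose by 0.93 (165 and 85.5 CPM, with 137 CPM in the batch 1 controls). Pdhb and Dlat, subunits of pyruvate dehydrogenase, had differences of -1.24 and -0.99, but within batch 1 they were -0.04 and 0.17, with 72.8 CPM of Pdhb and 28.5 CPM of Dlat in the batch 1 controls against 71.1 and 32.1 CPM in the WD group. Those controls ran from 30.8 to 103 CPM for Pdhb and from 8.53 to 49.3 CPM for Dlat. Pck1, the carboxykinase of glyceroneogenesis, had a difference of -1.52, with 517 CPM in the WD group, 1474 CPM in the batch 2 controls and 1370 CPM in the batch 1 controls, from which the difference was -1.41 (unadjusted p = 0.0962, edgeR). Control replicates 1 to 4 held 69.8, 2242, 2489 and 680 CPM of Pck1, and the WD libraries 81.0 to 704 CPM. The FDR ran from 0.00125 (Pdhb) to 0.0455 (Pkm). The batch 1 controls had a mean of 22.4 CPM of Pdk4 and ran from 5.62 to 47.6 CPM, with 10.7 to 32.0 CPM in the WD libraries.

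The list of glutamate and glutamine metabolism, the nearest to Gpt2, had 0 of 14 genes past an FDR of 0.05 against the batch 2 controls by edgeR, with 3 lower and 0 higher at an unadjusted p under 0.05 and a median of -0.59. Within batch 1 its median was -0.69 over 15 genes, with 0 at an unadjusted p under 0.05. Of 14 amino acid and glutamate carriers, 2 passed, beside 6.4% of all genes. Slc1a3, a glutamate transporter of the cell membrane, fell by 2.03 (91.4 CPM in the WD group, 370 CPM in the batch 2 controls, 191 CPM in the batch 1 controls, FDR = 1.29e-05 for edgeR's test against batch 2). Control replicates 1 to 4 held 24.4, 370, 303 and 66.6 CPM of Slc1a3, and the WD libraries 66.9 to 120 CPM. Slc25a13, a mitochondrial aspartate-glutamate carrier, rose by 4.81 (FDR = 0.00261), with 216 to 363 counts in the WD libraries and 0 to 27 in the batch 2 controls. In the batch 1 controls Slc25a13 had 0, 0, 153 and 218 counts, so that 2 of these libraries, at 16.5 and 18.2 CPM, stood within the WD range of 15.2 to 28.7 CPM.

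In the serine and one-carbon branch, 1 of 10 genes tested passed against the batch 2 controls, a share near the 6.4% of all genes. This was Mthfd2, a mitochondrial folate enzyme, which rose by 2.27 (21.4 CPM in the WD group, 4.40 CPM in the batch 2 controls) with an FDR of 0.0456, and which is also in the ATF4 list. The batch 1 controls held 43.7 ± 69.2 CPM of Mthfd2 (SD, n = 4), from 0 to 147 CPM. Of 21 genes of the ATF4 amino acid response tested, 2 rose and 1 fell, beside 6.4% of all genes that passed. Atf3, a stress-induced transcription factor, rose by 2.60 (FDR = 0.000946), from 9.80 CPM in the batch 2 controls to 60.1 CPM in the WD group. Its batch 1 control mean was 10.5 CPM, with 0.108, 3.67, 2.67 and 35.6 CPM in control replicates 1 to 4. The WD libraries held 46.9 to 85.3 CPM of Atf3. Eif4ebp1, an inhibitor of translation, fell by 1.14 (256 to 118 CPM, FDR = 0.00556), and its batch 1 control mean was 124 CPM. That mean hides 45.3, 200, 147 and 103 CPM in control replicates 1 to 4, against 88.6 to 134 CPM in the WD libraries. Asns, which this response is known to induce, was lower in the same comparison.

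**Figure D5:**
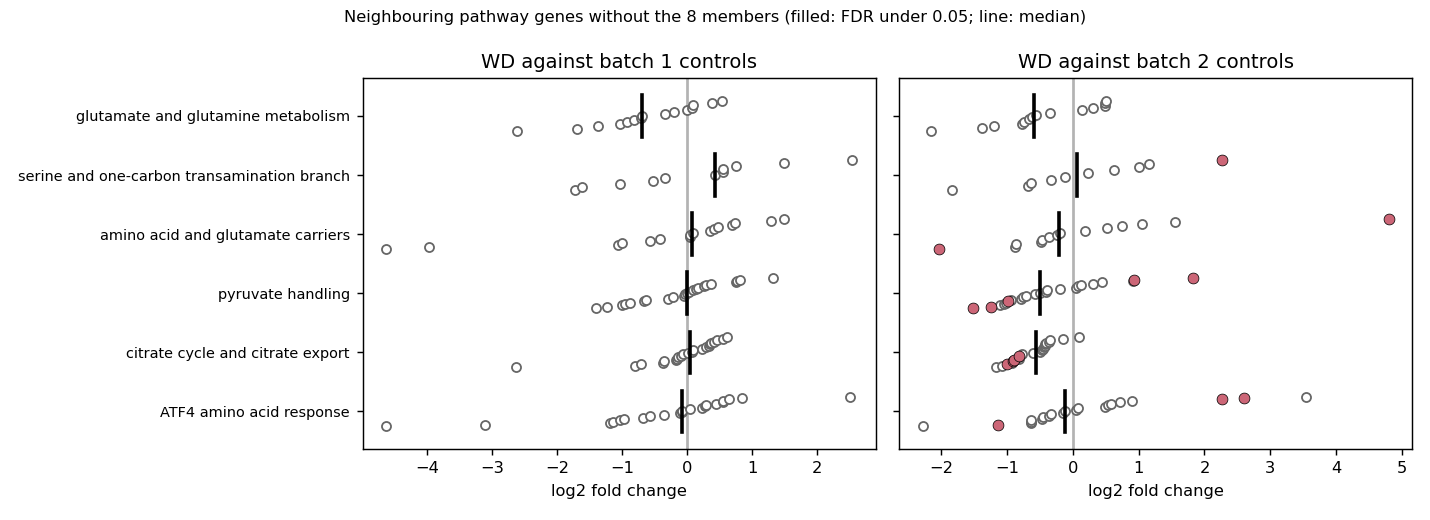
Log2 fold changes of the neighbouring pathway genes in 6 lists for the WD group against the batch 1 controls (left) and the batch 2 controls (right), with 1 dot per gene, filled where the FDR was under 0.05, and a line at each list's median. No dot is filled on the left, and on the right the citrate cycle list has 4 filled dots, all to the left of 0.

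Among the 12652 other genes that passed the filter over the 14 libraries, those most like Gpt2 were taken by Pearson's r of log2(CPM + 1). They were Fam13a (r = 0.935, Spearman's rho 0.873), Nfia (0.928, 0.815), Cyp2e1 (0.926, 0.912), Gsta3 (0.919, 0.877) and Cdo1 (0.912, 0.899). The most opposite were Crlf2 (-0.918, -0.846) and Grap (-0.912, -0.930). The 14 libraries share diet, batch and tissue makeup, so these are descriptions over 14 points without a test. Cyp2e1, a cytochrome P450, averaged 446 ± 377 CPM (SD, n = 4) over the batch 1 controls, 19 ± 25.5 CPM (SD, n = 5) over the WD libraries and 1708 ± 490.2 CPM (SD, n = 5) over the batch 2 controls. Cdo1, the cysteine dioxygenase, had 1951, 1163 and 2708 CPM in the same order. All WD libraries of Cyp2e1, Gsta3 and Cdo1 lay under all 9 controls, where 0.213% of all genes tested did so. These genes were picked by likeness to Gpt2, which was chosen by its fall on the WD. Their separation by diet therefore follows in part from the choice and adds no support. Of the 7 genes chosen by pathway, Glul was the most like Gpt2 (r = 0.688, rank 191 of 12652), before Asns (0.517, rank 833) and Pcx (0.414, rank 1453). Likeness to Gpt2 holds its fall on the WD here too. Gpt (0.165), Glud1 (0.105), Got2 (0.103) and Got1 (0.0469) were less like it.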

How the data were processed

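The authors sequenced QuantSeq 3′ libraries on a NextSeq 500, used Bowtie2 for single-end alignment and Bedtools coverage for counting, kept reads with multiple alignments, and deposited raw counts per gene. Total counts were 10278970 to 13712254 per library, and molecular identifiers were not mentioned, so depth gives counting error alone. A further 14 deposited columns, log2 values after TMM and CPM normalization by the authors, were not used. Groups came from the labels. The counts were tested with edgeR 4.0.16 (quasi-likelihood, TMM, filterByExpr, no covariates, FDR 0.05 over all genes tested) in R 4.3.3, for 4 comparisons. CPM, ratios and correlations (pseudocount 1) were computed with pandas 2.3.3. Alternatives were DESeq2 1.42.0, limma-voom (limma 3.58.1), library totals, upper-quartile factors, no filter, a batch term, the replicate number as a block and libraries left out. Scripts were tested on simulated data.

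The members and lists were chosen with earlier results of these data known. The text names the 8 members, at most 3 genes per list, direction and comparison with the lowest p under an FDR of 0.05, and the 5 genes most like and the 2 most unlike Gpt2. No pair of libraries of a group agreed within sampling noise. The labels name no litter, cage or date, so p-values measure the spread between these libraries.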

Additional observations from a re-analysis of the deposited data

Results flagged for a closer look

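In groups of 4 or 5 libraries, 3 of the 24 combinations of a gene and a group had a single library far from the rest relative to the group's range, where chance gives about 1.2 (1 in 20). Got1 was 0 on the log2(CPM + 1) scale in control replicate 4, against 2.79 to 3.30 in the other batch 1 controls. Got2 was 0 in WD replicate 4, against 4.62 to 5.46 in the other WD libraries. Glud1 was 5.88 in WD replicate 2, against 7.22 to 7.62 in the other WD libraries. The causes were not tested.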

How the results depend on the processing

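Asns and Glul passed an FDR of 0.05 against the batch 2 controls in 16 of 16 settings, with FDR up to 0.00759 and 0.0155. Gpt2 stayed negative throughout, between -2.10 and -1.36 within batch 1, between -2.82 and -2.58 against the batch 2 controls and between -2.55 and -1.75 over 14 libraries, the last with a batch term. Over 14 libraries, DESeq2 called 1 of the 7 genes (Glul, FDR = 0.0130), and 0 were called with any 1 library left out. The fit without control replicates 1 and 4, the controls with the lowest Asns, called 2 (Glul, FDR = 0.0110, and Asns, FDR = 0.00111, edgeR). Per adipocyte marker sum, which raises all ratios to the batch 2 controls alike, the Glul ratio was 1.19. The following log2 fold changes had the opposite sign to the reported one, and none passed the test; the cause was not tested. With limma-voom, which moved the median of all genes by 0.39, 0.52, -0.10 and 0.20 in the 4 comparisons, Got1 was -0.78 and Asns 0.75 within batch 1, Got1 1.04 between control batches, Got1 -1.85, Got2 -1.55 and Glud1 -0.010 against batch 2, and Got1 -1.35 and Pcx 0.10 over 14 libraries. With the batch term Pcx was 0.81. Without control replicates 1 and 4, Got1 was -0.16 and Got2 0.30 within batch 1, Got2 0.21 and Glud1 -0.059 between control batches, and Gpt -0.053 and Got2 0.14 over 14 libraries. DESeq2 gave Glud1 -0.058 between control batches and Got2 0.18 over 14 libraries, and library totals and upper-quartile factors gave Glud1 -0.026 and -0.014 between control batches. Leaving out 1 library at a time gave these ranges. Within batch 1 they were -0.51 to 0.46 (Got1), -2.69 to 0.48 (Got2) and -0.11 to 0.31 (Glud1). Between control batches they were -2.72 to 0.38 (Got2) and -0.20 to 0.25 (Glud1). Against batch 2 they were -0.030 to 0.90 (Got1), -0.12 to 0.40 (Got2) and -0.072 to 0.27 (Glud1). Over 14 libraries they were -0.14 to 0.28 (Gpt), -0.25 to 0.69 (Got1), -1.60 to 0.23 (Got2) and -0.059 to 0.29 (Glud1).

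Same-numbered libraries did not deviate together (r = -0.0213 to 0.0812 over 4 pairs). These values gave no sign that the numbers pair animals, but 4 pairs cannot exclude it. With the replicate block within batch 1, 0 of the 7 genes and 0 genes in all were called by edgeR, and Asns was 0.10. All genes called within batch 1 numbered 0, but 114 with DESeq2, 48 without control replicate 4 and 108 without control replicates 1 and 4. Between control batches DESeq2 called 111, the fit without those libraries 28, and fits without 1 library 0 to 2. Against batch 2 the number was 773, and 1154 with DESeq2. Over 14 libraries it was 67, and 225 with DESeq2, 223 with limma-voom, 1 with the batch term, 619 without control replicates 1 and 4, and 28 to 289 without 1 library, the highest without control replicate 4 and the lowest without WD replicate 3. Got1 had 15 to 207 counts where it had any. Total counts of control replicate 4, WD replicate 4 and WD replicate 5, where it had none, were 12334105, 12781448 and 11504298. The cause of the missing counts was not tested.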
